A study of Caenorhabditis elegans with 3 samples.

Results

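Germline and oocyte mRNAs are described here as they appear in a map of the RNA sites contacted in Caenorhabditis elegans by DCR-1, the only Dicer enzyme of this worm. The set holds 39 named genes: 6 of P granules, 23 of RNA binding and translational control, 7 of the eggshell and oocyte surface, and 3 of meiotic chromosome pairing. A gene counted as bound when a cluster of sequenced fragments of the coding class carried its symbol in sense orientation. By symbol, 24 of the 39 genes had such a cluster in the pooled consensus list and 25 in at least 1 of the 5 lists. When genes listed under another name were matched by their sequence name as well, which added cbd-1 and ifet-1, 26 had a consensus cluster and 27 a cluster in any list. All 39 symbols were found among the 19983 protein-coding genes of the RefSeq table for assembly WBcel235, which served as background.

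Sites were mapped by PAR-CLIP, in which UV light joins RNA that carries 4-thiouridine (4SU) to bound protein, and the joined uridines are read as T-to-C conversions. All 3 libraries came from whole young adult worms of the same kind: a rescue strain that expresses FLAG-tagged DCR-1, labelled with 4SU and irradiated. T1/V1 replicates 1 and 2 were digested with RNases T1 and V1 and ligated to a custom 3' adapter. T1 replicate 3 is labelled with RNase T1 alone and had the default adapter, although the general design text names both nucleases, so nuclease and adapter cannot be told apart. No untagged or uncrosslinked control library was used here. The labels do not state whether cultures were separate, so the spread between libraries may be technical.

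In the worm gonad, germ cells move from mitosis through meiosis to large oocytes, and much of this course is run by mRNAs that are made early, stored and translated late. P granules are the RNA-rich bodies of germ cells that hold many such mRNAs and the small RNA machinery. RNA-binding proteins of the KH, CCCH zinc finger, Pumilio and TRIM-NHL families repress or release the stored mRNAs, and the growing oocyte also makes the yolk receptor and the layers of the future eggshell. DCR-1 cuts double-stranded RNA into small RNAs, and a crosslink on an mRNA records contact, not cutting.

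The lists differed in size. T1/V1 replicate 1 held 399 clusters with 7829 reads, T1/V1 replicate 2 held 377 with 10834, and T1 replicate 3 held 1304 with 24992. The consensus list held 4705 clusters with 92004 reads, each with read support in 2 or more libraries, and 2508 of these formed the conservative list, with conversions in 2 or more. The pooled lists do not say which libraries back a cluster, so their values stand without a spread. Clusters also lay on genes of other tissues, on 3 of 3 intestine markers (1488 consensus reads), 2 of 3 muscle markers (278), 2 of 3 hypodermis markers (400), 1 of 3 neuron markers (3) and 1 of 4 sperm markers (8). Among the sperm markers, msp-3, msp-142 and spe-9 had no cluster. Whether fragments of such genes match several places, and so are missing from the lists, was not tested. Fewer cells of a type and less RNA per cell cannot be told apart in such whole-worm libraries, and mRNA levels were not used here.

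Matched by symbol or sequence name, 26 of the 39 genes were bound in the consensus list, or 66.7% (exact 95% binomial interval 49.8% to 80.9%). Of all protein-coding genes, 11.5% were. In the conservative list the count was 21, or 53.8% (37.2% to 69.9%), against 6.98% of all genes. T1 replicate 3 had clusters on 13 of the genes, against 3.63% of all genes. T1/V1 replicate 1 had clusters on 4, against 0.841%, and T1/V1 replicate 2 on 3, against 0.801%. At least 1 library list named 15 of the genes, where 4.22% of all protein-coding genes were named. The genes were chosen with results of these data known, so these counts describe the set and are not a test of it. Intervals here and below cover counting error only.

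**Figure D1:**
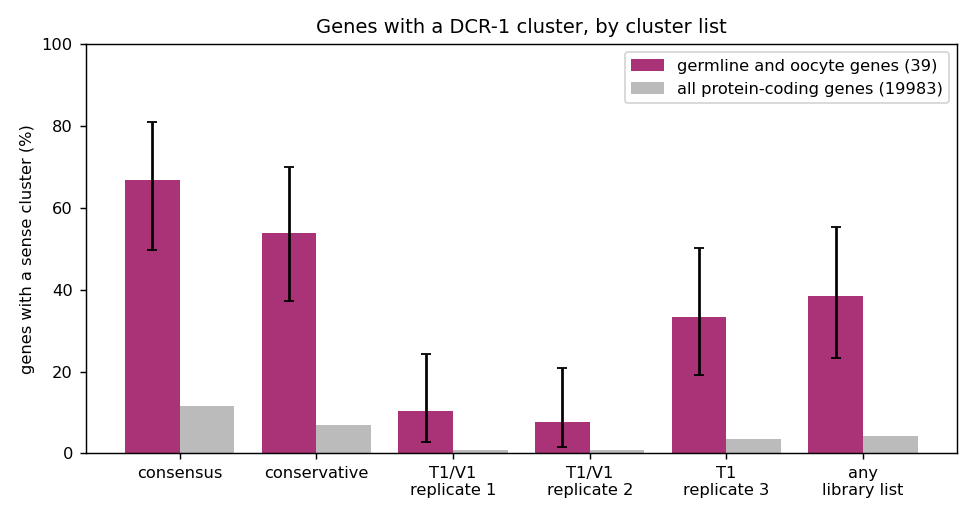
Share of genes with a sense cluster (vertical axis, %) in each cluster list (horizontal axis), for the 39 germline and oocyte genes, matched by symbol or sequence name, and for all 19983 protein-coding genes. Error bars are exact 95% binomial intervals, and the germline and oocyte share lies above the background in each list, from 7.69% in T1/V1 replicate 2 to 66.7% in the consensus list.

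The bound genes also carried more clusters each than a typical bound gene. They were chosen with results of these data known, so this describes the set only. Their median was 3 consensus clusters, against 1 for all protein-coding genes with a cluster, and 9 of 26 (34.6%) had at least 4, against 6.63%. The median of summed consensus reads was 13 per bound germline or oocyte gene, with a range of 3 to 70, against 5 over all bound protein-coding genes. In the library lists the medians lay close to the background and did not keep 1 direction. T1/V1 replicate 1 had a median of 2.5 reads against 4 and T1/V1 replicate 2 had 3 against 4.5, but T1 replicate 3 had 4 against 3. Together the 73 consensus clusters found by symbol held 440 reads, 0.478% of the list (0.435% to 0.525%). The median over these clusters was 5 reads, against 4 for clusters of other protein-coding genes.

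Of the P granule genes, 4 of 6 were bound in the consensus list (66.7%, 22.3% to 95.7%), against 11.5% of all protein-coding genes. The GLH proteins are DEAD-box RNA helicases related to Vasa, and the PGL proteins are RGG-box proteins that scaffold the granule. glh-1 had 4 clusters with 31 reads, 22 of them in the conservative list, and no cluster in any library list. Its leading cluster, in exon 2 on chromosome I, 6855211 to 6855252, had 14 reads and 17 conversions, so the number of conversions exceeded the number of reads. The GLH genes glh-3 and glh-4 had no cluster in any list. pgl-1 had 2 clusters with 12 reads, in exons numbered 2 or 3 and 6 or 7 depending on the isoform, but conversions came from 1 library at each, which left it out of the conservative list. It had no cluster in a library list either. glh-2 and pgl-3 had 3 and 6 consensus reads, and glh-2 was the 1 P granule gene in a library list, with 3 reads in T1/V1 replicate 1. That library cluster lay in exon 1 and the consensus cluster of glh-2 in exon 2, so they are separate sites.

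**Figure D2:**
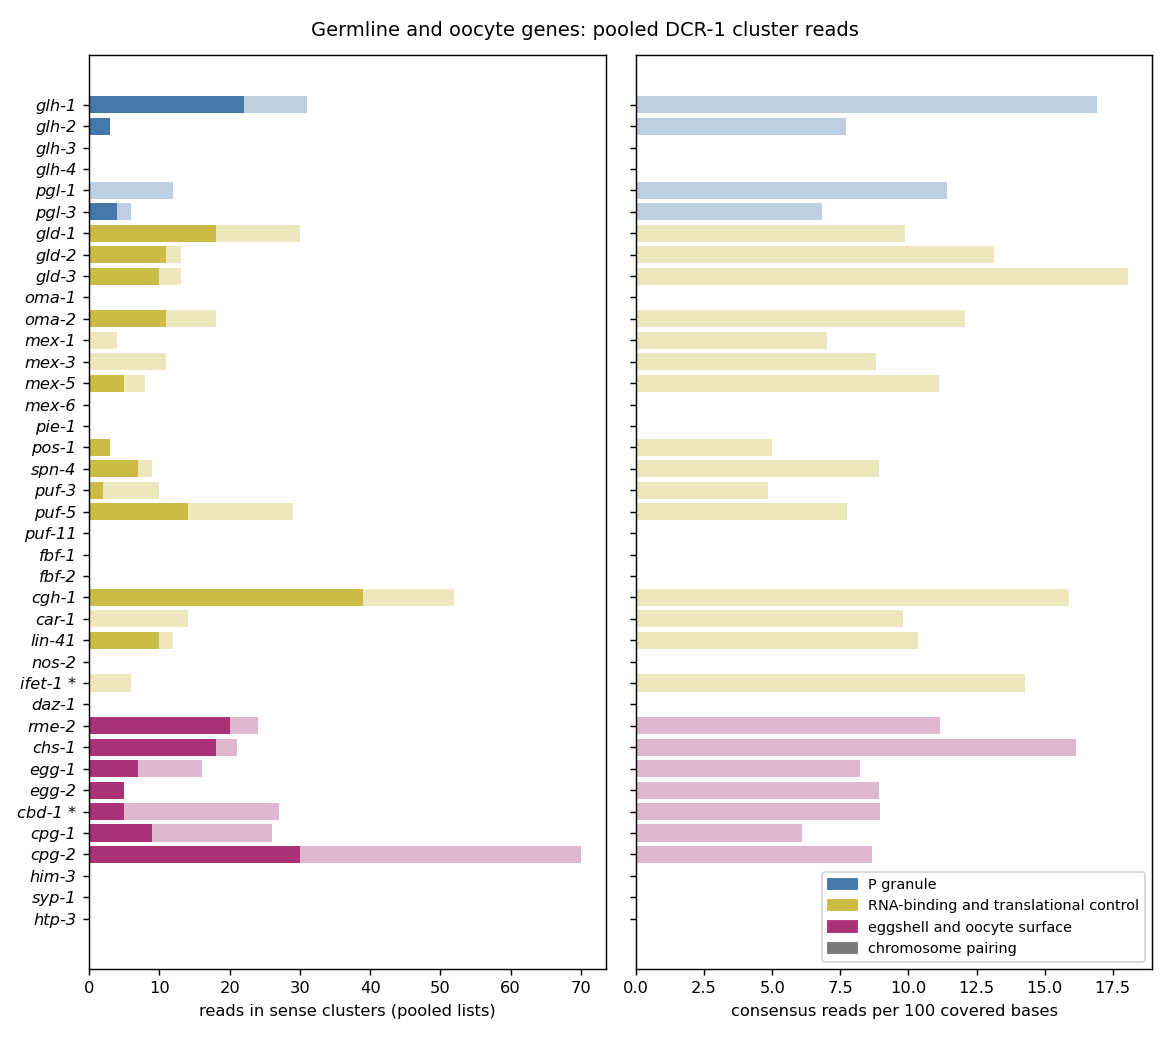
Left, summed reads in sense clusters for each of the 39 genes in the consensus list (pale bars) and the conservative list (dark bars); right, consensus reads per 100 bases covered by clusters; colours give function and an asterisk marks genes matched by sequence name. The cpg-2 gene has the most consensus reads, 70, and gld-3 the most per 100 covered bases, 18.1, while the 3 chromosome pairing genes have none.

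Among the 23 RNA-binding and translational control genes, 15 were bound in the consensus list (65.2%, 42.7% to 83.6%), with 232 reads. This count includes ifet-1, matched by sequence name. In the conservative list 11 were bound. The shares of all protein-coding genes were 11.5% and 6.98%. The GLD genes act in the switch from mitosis to meiosis and in oocyte mRNA control. gld-1, a KH-domain translational repressor, had 7 clusters with 30 consensus reads and 18 conservative reads, and listed 0 and 0 reads in T1/V1 replicates 1 and 2 and 6 in T1 replicate 3. Of its clusters 4 lay in coding exons and 3 in the 3' UTR. gld-2, a cytoplasmic poly(A) polymerase, had 13 consensus and 11 conservative reads and listed 0, 0 and 4 in the libraries. gld-3, a Bicaudal-C family partner of GLD-2, had 13 consensus and 10 conservative reads and likewise listed 0, 0 and 4. All 3 genes were thus found in T1 replicate 3 and in neither T1/V1 list. The lists hold called clusters only, so a 0 says that no cluster was called, not that no read was sequenced.

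The strongest sites of gld-2 and gld-3 each had conversions from all 3 libraries. The gld-2 cluster in exon 5, chromosome I, 6370932 to 6370985, had 11 reads and 12 conversions. The gld-3 cluster at the edge of exon 5, chromosome II, 7133270 to 7133315, had 10 reads and 17 conversions and reached into the neighbouring intron. In T1 replicate 3, whose reads the pooled list includes, both genes had a cluster with the same main crosslinked position as the pooled one. Scaled to covered length, gld-3 had 18.1 consensus reads per 100 covered bases, gld-2 had 13.1 and gld-1 had 9.87.

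The CCCH zinc finger genes split between near relatives. oma-2, which with its relative oma-1 is needed for oocyte maturation, had 3 clusters with 18 consensus and 11 conservative reads. It listed 0, 0 and 4 reads in the libraries, whereas oma-1 had no counted cluster. Clusters downstream of oma-1 named it only as a neighbour and did not count. The oma-2 cluster in exon 5, chromosome V, 8030246 to 8030291, had 6 reads and 9 conversions. T1 replicate 3 listed the same interval with 4 reads and the same main position. mex-5, an organiser of embryo polarity, had 8 consensus reads in exon 3, and its relative mex-6 had none. mex-1 and pos-1, regulators of embryonic cell fate, had 4 and 3 reads. pie-1, which keeps germline blastomeres transcriptionally quiet, had no cluster. mex-3, a KH-domain repressor, had 11 consensus reads in 3 clusters, with conversions from 1 library at each and no cluster in the other lists. Its cluster with most reads, 6, lay in the 3' UTR. spn-4, an RNA-binding protein of the early embryo, had 9 consensus reads and 3 reads in T1 replicate 3.

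Pumilio-family genes, whose products bind 3' UTRs and repress translation, differed in their clusters. puf-5 had 5 clusters with 29 consensus and 14 conservative reads, and listed 0, 0 and 7 in the libraries. Its strongest cluster, in exon 2 on chromosome II, 8576071 to 8576156, had 11 reads and 10 conversions, with conversions from all 3 libraries. The 7 reads of T1 replicate 3 lay on the same interval with the same main position. puf-3 had 3 clusters with 10 consensus reads and 2 conservative reads, and no library cluster. puf-11 had no pooled cluster and a single library cluster of 2 reads in exon 2, in T1/V1 replicate 2. fbf-1 and fbf-2, which maintain germline stem cells, had no cluster in any list. Also without a cluster were nos-2, a Nanos gene of the primordial germ cells, and daz-1, a gene of female meiosis.

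Related genes such as these can share sequence. All 9293 clusters of the lists had as many unique reads as reads. If unique means uniquely mapped, fragments that match several places are not in these values. How much of each gene pair is identical was not analysed here, and whether this lowers the values of an unbound relative of a bound gene, such as oma-1 or mex-6, was not tested.

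The genes of stored-mRNA particles outside the P granule proteins were led by cgh-1, a DEAD-box helicase related to DDX6. It had 52 consensus and 39 conservative reads, and listed 16 and 0 reads in T1/V1 replicates 1 and 2 and 23 in T1 replicate 3. Most of this lay in an intron on a stretch that the authors' annotation gives as a small nucleolar RNA (snoRNA), chromosome III, 7496500 to 7496580, with 30 consensus reads and 4 conversions. Of the library reads, 10 of 16 (T1/V1 replicate 1) and 21 of 23 (T1 replicate 3) lay on this snoRNA. Without it, cgh-1 had 22 consensus reads, or 8.94 per 100 covered bases in place of 15.9. The remaining cgh-1 clusters were on the mRNA, and the leading one lay in the 3' UTR, chromosome III, 7495786 to 7495841, with 9 reads and 7 conversions.

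car-1, an Sm-like partner of CGH-1, had 4 clusters with 14 consensus reads, 1 of them in the 3' UTR, and no conservative or library cluster. lin-41, a TRIM-NHL protein of growing oocytes, had 12 consensus and 10 conservative reads and no library cluster. Its main cluster crossed an edge of exon 10, chromosome I, 9338746 to 9338801, with 10 reads, and the other, in the 5' UTR, had 2. ifet-1, the worm eIF4E transporter, was listed under an older name with 6 consensus reads in exon 7.

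Of the eggshell and oocyte surface genes, with cbd-1 matched by sequence name, 7 of 7 were bound in the consensus list. In the conservative list 7 of 7 were bound, and 6 had a library cluster. By symbol alone these counts were 6, 6 and 5. The shares of all protein-coding genes were 11.5%, 6.98% and 4.22%. The interval of 7 of 7, 59.0% to 100%, overlapped the consensus intervals of the P granule and RNA-binding genes. rme-2, the yolk receptor, had 24 consensus and 20 conservative reads and listed 0, 0 and 4 in the libraries. Its cluster in exon 4, chromosome IV, 5471681 to 5471746, had 12 reads and 15 conversions, with reads from all 3 libraries. The cluster called in T1 replicate 3 lay on another site, in exon 2. chs-1, the chitin synthase of the eggshell, had 21 consensus and 18 conservative reads and listed 0, 0 and 2. Its leading cluster lay in exon 6 on chromosome I, 7557690 to 7557740, with 14 reads and 16 conversions, and conversions from all 3 libraries. egg-1 and egg-2, oocyte surface proteins needed for fertilisation, had 16 and 5 consensus reads and 7 and 5 conservative reads. egg-1 had no library cluster and egg-2 had 2 reads in T1 replicate 3.

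The genes of the chitin-binding and proteoglycan layers differed in how many library lists named them. cbd-1, a chitin-binding protein of the vitelline layer, was listed under its sequence name with 5 clusters and 27 consensus reads, 5 conservative reads, and 2 and 4 reads in T1/V1 replicates 1 and 2 and 10 in T1 replicate 3. cpg-1, a chondroitin proteoglycan of the eggshell, had 26 consensus and 9 conservative reads and 2, 3 and 7 in the libraries. These were the 2 genes of the set with a cluster in all 3 libraries, although with few reads in each. The sites mostly differed. No cbd-1 cluster of 1 library shared a base with that of another. Those of cpg-1 overlapped only between T1/V1 replicate 2 and T1 replicate 3, in exon 2. cpg-2, the related proteoglycan, had the most reads of any gene here, 70 in 8 consensus clusters and 30 in the conservative list, yet it listed 0, 0 and 27 reads in the libraries. T1 replicate 3 alone gave 17 reads at the cpg-2 cluster in exon 4, chromosome III, 7102419 to 7102585, which had 20 reads in the consensus list.

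The proteoglycan clusters were long and held few conversions per read, but some other genes of the set were alike in this. The median length of the 12 consensus clusters of cpg-1 and cpg-2 was 88.5 nt, against 51 nt for the 58 other coding exon clusters of the set and 51 nt for the 3048 coding exon clusters of other genes. The cpg-2 clusters covered 807 nt of a genomic span of 1389 nt, introns included, or 58.1%, while those of gld-1 covered 13.2% of 2297 nt. The share was 31.8% for cpg-1 and 34.6% for puf-5. None of the 12 proteoglycan clusters had a conversion per read or more, against 17 of the 58 others. The 5 coding exon clusters of puf-5 (median 82 nt), the 5 of cbd-1 and the 4 of gld-1 also had none. Per 100 covered bases, cpg-2 had 8.67 consensus reads and cpg-1 had 6.09, below chs-1 with 16.2 and rme-2 with 11.2. The values of egg-1, egg-2 and cbd-1 were 8.21, 8.93 and 8.94, near that of cpg-2. A high read total in cpg-2 thus went with wide coverage rather than with dense clusters. Of the cpg-1 clusters, 3 were exonic in 1 isoform and intronic in another.

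**Figure D3:**
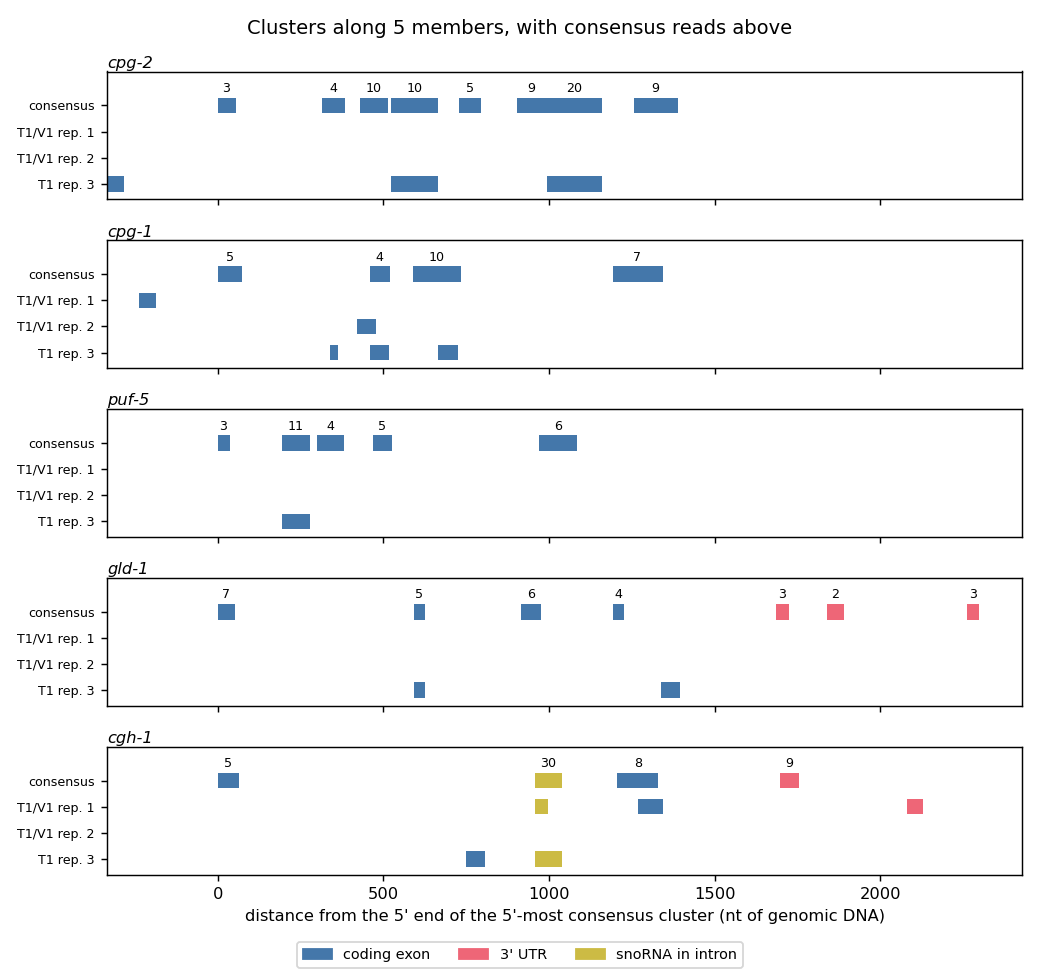
Clusters along cpg-2, cpg-1, puf-5, gld-1 and cgh-1 in the consensus list and the 3 library lists, plotted by distance in nt of genomic DNA from the 5' end of the 5'-most consensus cluster, with consensus reads above each cluster and colours for the mRNA part. The cpg-2 clusters cover 58.1% of their span, the 3 clusters at the 3' end of gld-1 lie in the 3' UTR, and the 30-read block of cgh-1 is the intronic snoRNA.

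The 3 genes of chromosome pairing had no counted cluster in any of the 5 lists. Any cluster upstream of syp-1 that named it only as a neighbour did not count. him-3 and htp-3 encode HORMA-domain proteins of the chromosome axis and syp-1 a protein of the central region of the synaptonemal complex. With 3 genes, a count of 0 leaves an interval up to 70.8%, so a lower share than in the other functions was not detectable. A further list of 26 meiotic genes had 6 with a consensus cluster, each with 4 to 6 reads, among them rec-8, a cohesin, with 6, and msh-5, a crossover protein, with 5. The 6 of 26 stand beside 11.5% of all protein-coding genes. The conservative list named 2 of the 26, a share near its background of 6.98%, and a library list named 2.

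Other genes of the same pathways were read in the same way, beside the shares of all protein-coding genes of 11.5% in the consensus list, 6.98% in the conservative list and 4.22% in any library list. Of 24 other germline RNA regulators, 14 had a consensus cluster, 7 a conservative cluster and 4 a library cluster, led by the Y-box gene cey-2 with 17 reads and followed by rnp-8, cey-3 and ncl-1 with 11 each. Of 15 other eggshell genes, 6 had a consensus cluster, led by perm-2 with 21 reads, perm-4 with 14 and cpg-3 with 10. A conservative cluster was found for 5 and a library cluster for 3. Of 10 other P granule genes, 3 had a consensus cluster, namely prg-1, the Piwi protein, with 13 reads and deps-1 and mip-2 with 6 each. A conservative cluster was found for 1, which is near the background, and none of the 10 had a library cluster.

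Coding exons held most of the clusters of the germline and oocyte genes. Of the 73 consensus clusters found by symbol, 64 lay in coding exons, or 87.7% (77.9% to 94.2%), against 83.2% of the 3663 clusters on other protein-coding genes. The 3' UTR held 7, or 9.59% (3.94% to 18.8%), against 7.23%. The 5' UTR held 1 and an intronic snoRNA held 1, and no cluster lay in an intron alone, where 4.12% of the other clusters did. For exons, 3' UTRs and introns, whose interval reaches 4.93%, the background share lay inside the interval of the set. By reads, the set had 85.9% in coding exons and 6.82% in 3' UTRs, against 56.5% and 2.90% in other genes, where 36.0% of the reads lay on noncoding RNAs, against 6.82% in the set. The 3' UTR clusters came from gld-1 with 3 and from gld-2, mex-3, cgh-1 and car-1 with 1 each. None came from P granule or eggshell genes.

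In coding exons, conversions were near the background in the consensus list, where 52.1 of 100 edits were T-to-C (47.4 to 56.7) in clusters of the set and 48.1 (47.5 to 48.7) in clusters of other genes, and the median over clusters was 50 in both. In T1 replicate 3 the same values were 45.2 (33.5 to 57.3) and 39.4. The T1/V1 libraries had few coding exon clusters of the set, 3 with 88.9 (51.8 to 99.7) against 57.9 and 2 with 50 (6.76 to 93.2) against 36.4. Over all mRNA parts and noncoding RNAs of the consensus list, the set had 51.4 (46.9 to 55.8) and other genes 42.2, which lies outside that interval. The interval treats edits as independent, although edits within a cluster share fragments. The median over these clusters was 50 in both. Noncoding RNAs held 6.82% of the reads of the set and 36.0% in other genes. Their part in the gap between 51.4 and 42.2 was not tested. By function, with cbd-1 and ifet-1 matched by sequence name, the consensus value was 57.7 for the 33 coding exon clusters of RNA-binding genes, 46.6 for the 28 of eggshell genes and 41.2 for the 9 of P granule genes, where edits within a cluster share fragments and are not independent. By symbol, clusters with a conversion per read or more made up 17 of 64, or 26.6%, against 30.2% of the other coding exon clusters. Median reads were 5 against 4 and median length 53.5 nt against 51 nt.

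**Figure D4:**
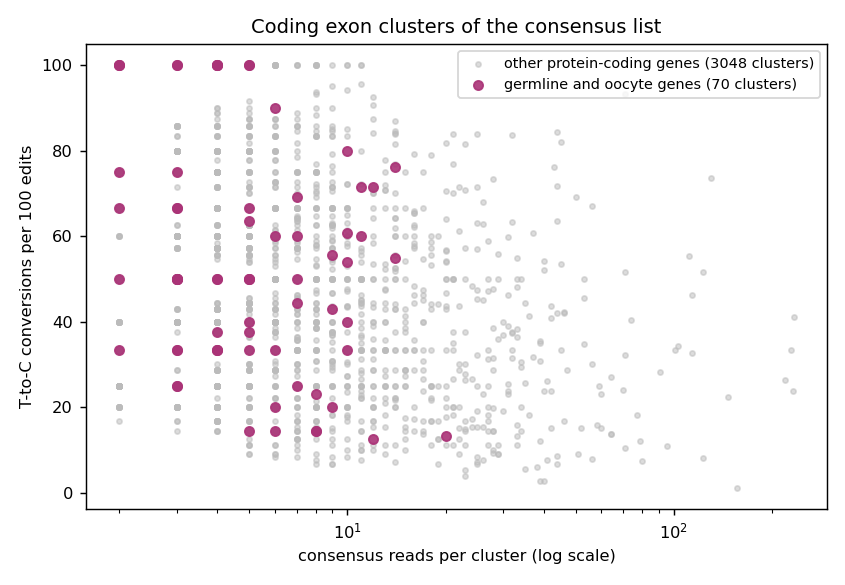
T-to-C conversions per 100 edits (vertical axis) against reads per cluster (horizontal axis, log scale) for coding exon clusters of the consensus list, with the 70 clusters of germline and oocyte genes, cbd-1 and ifet-1 included, over the 3048 clusters of other protein-coding genes. The clusters of the set lie within the cloud of the others and none exceeds 20 reads.

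Recurrence was read in 2 ways. In the pooled list, 45.3% of the coding exon clusters of the set had reads from all 3 libraries, against 46.7% for other genes, and 43.8% had conversions from at least 2, against 48.6%. Between the library lists, 4 of the 26 clusters found by symbol overlapped a cluster of another library by at least 1 base, or 15.4% (4.36% to 34.9%), against 24.9% of 1302 clusters on other protein-coding genes. These 4 were a pair on the cgh-1 snoRNA and a pair in exon 2 of cpg-1, so that 2 of 23 coding exon clusters recurred (8.70%), against 12.3% of 992 in other genes. Among coding exon clusters of under 10 reads the shares were 9.09% in the set and 8.50% in other genes. Of the 19 clusters of T1 replicate 3, 12 (63.2%) overlapped a consensus cluster, against 70.0% of 922 clusters on other protein-coding genes. The consensus list pools the same libraries, so such overlaps are partly built in.

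By library, the summed reads of the set, matched by symbol, were 21 and 5 for T1/V1 replicates 1 and 2 and 93 for T1 replicate 3. The T1/V1 mean was 13 ± 11.3 reads (SD, n = 2), and T1 replicate 3 lay above both. As a share of each list's reads these sums were 0.268% (0.166% to 0.410%), 0.0462% (0.0150% to 0.108%) and 0.372% (0.300% to 0.456%). On that scale the intervals of T1/V1 replicate 1 and T1 replicate 3 overlapped. With the reads of cbd-1, matched by sequence name, the sums were 23, 9 and 103, the shares 0.294%, 0.0831% and 0.412%, and the T1/V1 mean 16 ± 9.90 reads (SD, n = 2). Without the snoRNA in the cgh-1 intron the sums by symbol were 11, 5 and 72. No test was made, since the T1 group is a single library whose adapter also differed.

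**Figure D5:**
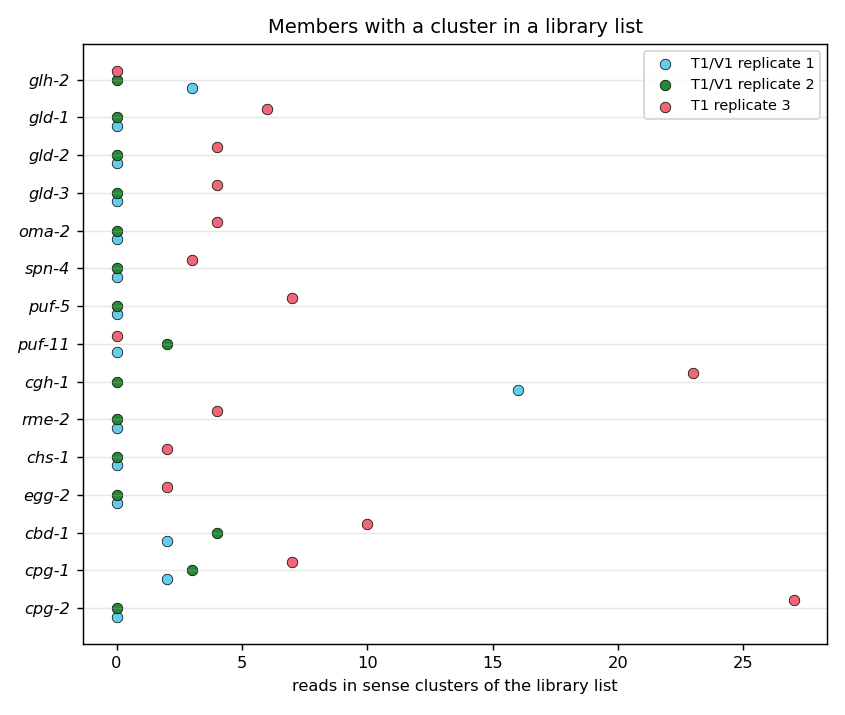
Reads in sense clusters of each library list (horizontal axis) for the 15 genes with a cluster in at least 1 of the 3 libraries, 1 point per library. Most genes have a called cluster in the list of T1 replicate 3 alone, and cbd-1 and cpg-1 have called clusters in all 3 lists. A gene without a called cluster in a library may still have reads there. The cgh-1 values of 16 and 23 include the intronic snoRNA.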

How the data were processed

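The values came from 3 libraries and 2 pooled lists of PAR-CLIP clusters. Bowtie2 2.1.0 is listed, per the submitters' processing notes. Coordinates are those of the lists, and for their build the sources used here give no name. The authors' cluster caller estimated false discoveries at 5%, per the file headers. The deposited values are a raw count of reads, of T-to-C conversions and of edits for every cluster. The authors' entropy score per cluster is deposited too and entered no result.

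The members and gene lists were chosen with earlier results of these data known. All 39 genes are accounted for by name, those with at least 10 consensus reads have values in every list, and of each further pathway list at most 4 genes with most reads are named. A cluster counted for a gene when the coding class and its symbol were given in sense, or, as an alternative, its sequence name on an exon or intron. Mentions of a gene as a neighbour did not count, which left out clusters downstream of oma-1 and upstream of syp-1. Clusters over several mRNA parts were assigned to noncoding RNA, coding exon, UTR and intron in that order. Of 3742 coding clusters with a gene name in the consensus list, 3612 matched a protein-coding gene of the RefSeq table (WBcel235), used for names only.

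Overlap meant at least 1 shared base on the same strand. Intervals are exact (Clopper-Pearson) 95% binomial intervals. No test was run over the members, and no p-values are given. Depth was 7829 to 24992 reads in the clusters of a library. Alternatives covered matching, read and conversion minimums, list, overlap rule and left-out libraries. The counting code was tested on simulated data. The software was SciPy 1.17.1, numpy 2.4.6, pandas 2.3.3 and matplotlib 3.10.9 under Python 3.11.15.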

Additional observations from a re-analysis of the deposited data

Results flagged for a closer look

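A cluster on the strand opposite to pgl-3 lay outside the sense clusters described above. In the consensus list it ran from 4758127 to 4758167 on chromosome V and had 6 reads with 1 conversion, with reads from all 3 libraries. T1 replicate 3 listed the same interval with 3 reads. It shared 14 bases with a sense cluster of pgl-3 that had 2 reads, 4758154 to 4758188. Of the 39 genes, 1 (2.56%) had an antisense cluster in the consensus list, against 312 of 19983 protein-coding genes (1.56%). There was no control library to set it against, and its source was not tested.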

How the results depend on the processing

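Of 41 alternatives over 9 results, 31 stayed within their limits of 1.5 times the count or 1 spread, and 10 moved. The members with a consensus or conservative cluster (24 and 20) ranged over 20 to 26 and 16 to 21. The 14 members in any library list fell to 3 with clusters of at least 5 reads, and leaving out 1 library gave 4 to 13, the lowest without T1 replicate 3. In the conservative list, the 3' UTR share was 3.33% in place of 9.59% and summed reads were 248 in place of 440, as that list holds fewer clusters. The 4 recurring library clusters fell to 2 when a pair had to share at least 50% of the shorter cluster and to 2 without the snoRNA in the cgh-1 intron, an alternative chosen after seeing the data. Leaving out 1 library gave 0 to 2 of them, with 0 without T1 replicate 3 and 2 without either T1/V1 replicate. The T1/V1 mean of 13 reads was 15.7 per 10000 listed reads, another unit, and 5 to 21 by single library, 5 without replicate 1 and 21 without replicate 2. Matching by sequence name as well, also chosen after seeing the data, gave 16. No paired analysis was possible because the T1/V1 and T1 libraries share no replicate number. Clusters of the set have a median of 5 reads, and lists of called clusters cannot tell a gene at 0 from one below the calling threshold.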
